A study of Mus musculus with 6 samples.

Results

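Small leucine-rich proteoglycans are secreted matrix proteins built on a core of leucine-rich repeats, and 10 of their genes were followed here in cultured endothelial cells of the mouse stria vascularis: *Dcn*, *Bgn*, *Aspn*, *Lum*, *Fmod*, *Prelp*, *Kera*, *Omd*, *Epyc* and *Ogn*. The members were taken by gene symbol from a table of 24421 genes, and all 10 symbols were found in it. RNA was sequenced from 6 libraries, 3 from *Nhe6*-knockout cultures and 3 from wildtype cultures, to see how gene expression differs between the genotypes. The knockout is a targeted disruption carried in every cell of the animal. The labels name C57BL/6N as the background of both genotypes, while the methods name C57bl6/j, and no culture was treated. Cells of each culture were pooled from at least 6 mice of postnatal day 10 to 12, purified by flow cytometry and grown in endothelial medium with serum. By the methods, the starting tissue was the stria vascularis together with the spiral ligament. The 3 libraries of a genotype are separate cultures, and the p-values measure the spread between such cultures.

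These proteins bind collagen fibrils and set their diameter and spacing, and several also bind growth factors such as TGF-beta. Decorin, biglycan and asporin form class I. Lumican, fibromodulin, prolargin, keratocan and osteomodulin form class II, several of which carry keratan sulfate, and epiphycan and osteoglycin belong to class III. Decorin and biglycan carry chondroitin or dermatan sulfate chains, asporin carries none, and epiphycan is best known from cartilage and from the supporting cells of the cochlea.

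Reads counted on genes ran from 25587097 to 29126232 per library, and 13479 genes had enough counts to be tested. The culture that differed most was wildtype replicate 2, which scored 106 on the main principal component of log2 counts where the rest scored -28.5 to -6.52. *Nhe6*-knockout replicates 1 and 2 were the closest pair, with a chi-square of 4.89 per degree of freedom against 89.6 to 397 for the other pairs, which is above the 1 of pure counting noise. So close a pair adds little to the spread between cultures that the p-values measure. With these 2 libraries summed, edgeR called 1 gene at an adjusted p under 0.05, against 9 with all 6 libraries apart. Of 15 listed endothelial markers, 4 averaged 100 normalized counts or more, *Cdh5*, *Tek*, *Emcn* and *Egfl7*, while *Cldn5*, *Sox17* and *Robo4* had 0 reads in each library. All 13 listed fibroblast markers reached that mean, so the labelled cell type was only partly borne out by its markers. Normalized counts are reads scaled to the mean library size, and fold changes are *Nhe6*-knockout relative to wildtype.

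Of the 10 genes, 7 lie in 2 clusters, on chromosomes 10 and 13 of GRCm38, and 2 more lie near each other on chromosome 1. On chromosome 10 the order is *Dcn* (97479609 to 97518143), *Lum* (97565128 to 97572703), *Kera* (97606879 to 97613692) and *Epyc* (97644068 to 97682454), all on the plus strand and 30.4 to 47.0 kb apart. On chromosome 13, *Aspn* (49544443 to 49567565), *Omd* (49582462 to 49592822) and *Ogn* (49608046 to 49624501) follow *Ecm2*, a related leucine-rich repeat gene, and lie within *Cenpp* on the opposite strand. On chromosome 1, *Prelp* (133910304 to 133921414, minus strand) and *Fmod* (134037254 to 134048277, plus strand) are 116 kb apart. *Bgn* stands alone on chromosome X (73483602 to 73495933). Each gene is protein coding in GENCODE M21. The exons of *Epyc* overlap those of the noncoding gene *Gm10754* on the other strand over 1041 bp, or 40.7% of the merged exon length of *Epyc*, and *Gm10754* had 2 reads in wildtype replicate 3 and 0 in every other library.

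Upstream windows from RefSeq (GRCm38.p6) were matched for 8 of the 10 genes. Those of *Epyc*, *Aspn*, *Fmod* and *Prelp* are shown because *Epyc* differed between the genotypes without overlap and the other 3 genes peaked together in 1 library, as described further on. Each is the 250 bases that end just before the RefSeq start, written 5′ to 3′ on the gene's own strand. Matches to TATAAA or to the SOX site ACAATGG, on either strand, are in capitals. The RefSeq start of *Prelp* lies just inside the GENCODE range given above, so its window overlaps the end of that range.
*Epyc*, chr10:97643818-97644067, plus strand: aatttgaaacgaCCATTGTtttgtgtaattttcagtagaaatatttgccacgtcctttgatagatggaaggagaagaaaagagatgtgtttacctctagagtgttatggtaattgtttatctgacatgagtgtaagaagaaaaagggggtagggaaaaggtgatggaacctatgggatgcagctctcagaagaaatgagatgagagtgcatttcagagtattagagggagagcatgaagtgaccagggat
*Aspn*, chr13:49544193-49544442, plus strand: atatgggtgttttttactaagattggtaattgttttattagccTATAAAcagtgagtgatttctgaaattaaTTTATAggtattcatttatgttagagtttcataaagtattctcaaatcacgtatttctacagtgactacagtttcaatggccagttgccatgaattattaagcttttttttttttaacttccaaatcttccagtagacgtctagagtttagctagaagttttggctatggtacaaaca
*Fmod*, chr1:134037004-134037253, plus strand: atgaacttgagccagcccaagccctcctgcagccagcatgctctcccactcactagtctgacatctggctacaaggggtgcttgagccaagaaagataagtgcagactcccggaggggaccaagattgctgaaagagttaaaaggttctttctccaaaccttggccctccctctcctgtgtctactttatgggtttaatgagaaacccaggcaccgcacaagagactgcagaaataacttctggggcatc
*Prelp*, chr1:133921402-133921651, minus strand: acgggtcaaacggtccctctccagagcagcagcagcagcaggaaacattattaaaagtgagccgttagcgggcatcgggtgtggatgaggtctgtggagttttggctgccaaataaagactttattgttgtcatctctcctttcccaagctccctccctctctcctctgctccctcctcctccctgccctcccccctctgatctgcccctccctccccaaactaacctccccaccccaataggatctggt
The *Epyc* window shown held 1 SOX match, 238 bases before the start, on the reverse strand. Of all 32851 windows of this length, 3.02% held such a match. *Epyc* has a second window, chr10:97646853-97647102, which is not shown, held no match to any of the motifs searched and had a GC content of 31.2%. The *Aspn* window held TATAAA 207 bases before the start and its reverse complement 178 bases before it, and 12.4% of all windows held a match. No match to TGACTCA (AP-1), CAGACA (SMAD), CACGTG (E-box) or AACCACA (RUNX) was found in any of these 4 windows, against 4.46%, 17.1%, 6.02% and 4.40% of all windows. The GC content of the windows shown was 30.0% for *Aspn*, 39.2% for *Epyc*, 51.2% for *Fmod* and 55.6% for *Prelp*, with a median of 52.4% over all windows.

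In *Nhe6*-knockout cells *Epyc* transcripts averaged 250.1 normalized counts against 1389 in wildtype cells and *Dcn* transcripts 4239 against 2116, with no overlap between the cultures in either case. *Bgn* was higher in each *Nhe6*-knockout culture by a small margin. The means of *Aspn*, *Fmod* and *Prelp* were lower in *Nhe6*-knockout cells, and wildtype replicate 2 held most of their wildtype reads, and *Lum*, *Omd* and *Ogn* overlapped between the genotypes. In bulk RNA, fewer cells of a type and less RNA per cell cannot be told apart. Of the 10 members, 9 passed the filter on low counts. Their log2 fold changes were below 0 for 5 and above 0 for 4, with a median of -0.38 beside -0.02 over all genes tested. None of the 9 had an edgeR adjusted p under 0.05, against 0.0668% of all genes tested. At an unadjusted p under 0.05 there were 2, *Dcn* and *Epyc*, against 11.8% of all genes (6.14% higher, as *Dcn*, and 5.71% lower, as *Epyc*). DESeq2 gave these same 2 genes an adjusted p under 0.05 (4.69% of all genes, 2.85% higher and 1.83% lower), limma-voom none (0.0742% of all genes), and edgeR without wildtype replicate 2 none (2.88% of all genes). The genotypes did not overlap for 3 of the 9, *Epyc* on the lower side and *Dcn* and *Bgn* on the higher, against 19.9% of all genes tested, 9.57% lower and 10.3% higher.

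**Figure D1:**
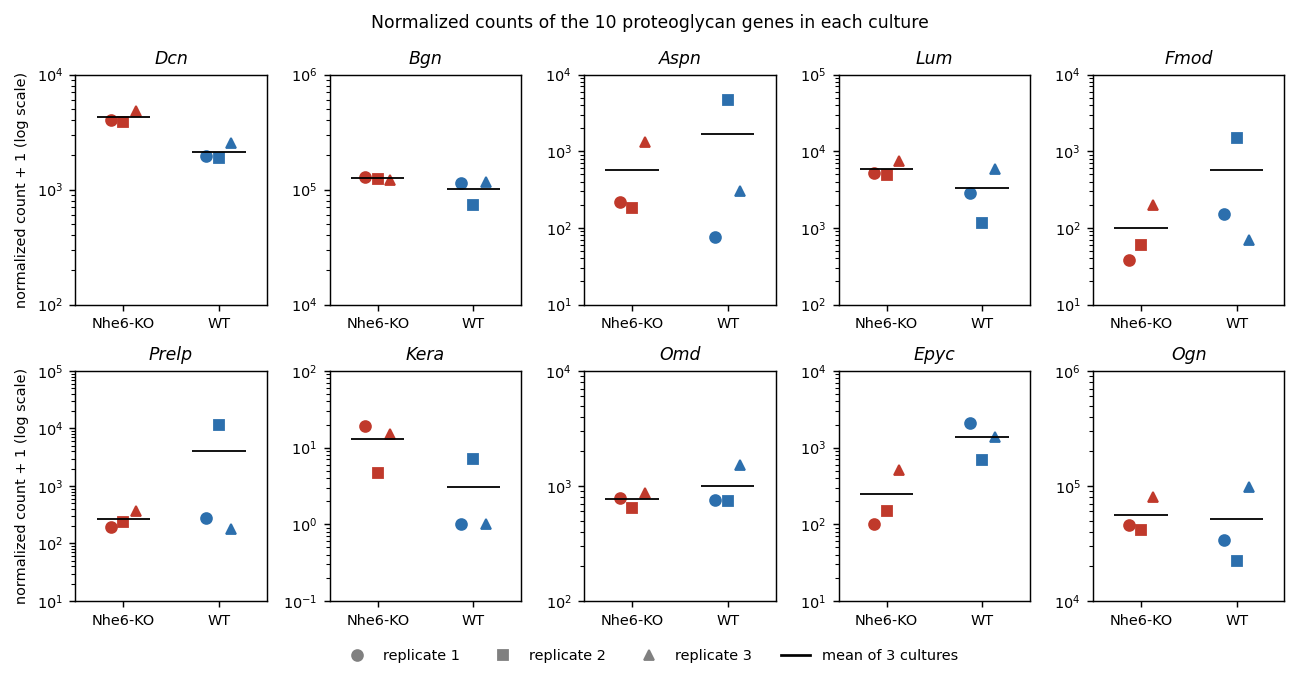
Normalized count plus 1 (log axis) of each of the 10 genes in the 3 *Nhe6*-knockout (KO, red) and 3 wildtype (WT, blue) cultures, with the symbol giving the replicate and the line the mean of 3. The cultures of the genotypes are separate for *Dcn*, *Bgn* and *Epyc*, and wildtype replicate 2 lies far above all others for *Aspn*, *Fmod* and *Prelp*.

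*Epyc* encodes epiphycan, and the study itself names it among the most lowered genes of these libraries, so its contrast is not independent evidence. Normalized counts of *Epyc* in replicates 1 to 3 were 98.8, 148 and 504 for *Nhe6*-knockout and 2081, 693 and 1393 for wildtype. Each *Nhe6*-knockout culture was below each wildtype culture, yet replicate 3 of the knockout came within reach of wildtype replicate 2, the lowest wildtype culture. *Nhe6*-knockout cultures averaged 250.1 ± 221 (SD, n = 3), and wildtype cultures 1389 ± 694 (SD, n = 3). The resulting log2 fold change, -2.47 with a standard error of 0.71, missed the threshold (edgeR adjusted p = 0.253). The exact two-sided permutation p was 0.1, the smallest that 3 against 3 allow. Across 14 alternatives the estimate ran from -3.50 to -2.06, and its adjusted p from 0.00516 (DESeq2) to 0.759. Within *Nhe6*-knockout cells replicate 3 had 4.09 times the mean of replicates 1 and 2.

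The summed level of 7 listed epithelial markers was 217, 688 and 58.7 normalized counts in *Nhe6*-knockout and 1117, 4.13 and 481 in wildtype replicates 1 to 3, with *Kcne1* at 0 in each library. *Coch*, the spiral ligament fibrocyte gene of cochlin, had 134, 383 and 115 normalized counts in *Nhe6*-knockout against 695, 1655 and 457 in wildtype replicates 1 to 3, also without overlap (log2 fold change -2.15, standard error 0.66, edgeR adjusted p = 0.280). *Pou3f4*, a transcription factor gene of the same cells, went the other way without overlap, with 3037, 3243 and 3027 normalized counts in *Nhe6*-knockout and 2092, 122 and 2183 in wildtype replicates 1 to 3 (log2 fold change 1.08, standard error 0.87, edgeR adjusted p = 0.692). *Tbx18*, *Car3* and *Otor* overlapped between the genotypes, and *Otos* was below the filter. The sum of the 6 fibrocyte markers, most of it *Tbx18* and *Car3*, overlapped too. That sum was 19937 to 27072 in *Nhe6*-knockout and 6497 to 36001 in wildtype cells. Of 9 listed cartilage markers, 5 were tested, 2 with a log2 fold change below 0 and 3 above 0. *Col2a1* (2.26, standard error 0.70) and *Col9a1* (1.91, standard error 0.80) were higher in *Nhe6*-knockout without overlap. *Comp* (-2.76, standard error 0.98), *Cnmd* (-0.49) and *Sox9* (0.56) overlapped. The part of epithelial cells, fibrocytes or cartilage cells in the *Epyc* difference was not tested.

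*Ogn* encodes osteoglycin, the other class III gene, first isolated from bone and abundant in connective tissue. *Ogn* had 45616, 41173 and 79633 normalized counts in *Nhe6*-knockout and 34037, 22146 and 97527 in wildtype replicates 1 to 3. Replicate 3 was the highest culture of either genotype, and the ranges overlapped throughout. The log2 fold change was 0.11 (standard error 0.59, edgeR adjusted p = 0.959), and it changed sign without *Nhe6*-knockout replicate 3 (-0.25), without wildtype replicate 1 (-0.11) and without wildtype replicate 2 (-0.25).

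*Dcn* encodes decorin, which binds collagen fibrils and TGF-beta. It had 4050, 3834 and 4835 normalized counts in *Nhe6*-knockout and 1971, 1863 and 2513 in wildtype replicates 1 to 3. All *Nhe6*-knockout cultures lay above all wildtype cultures, and the spread within each genotype was small. *Nhe6*-knockout cultures averaged 4239 ± 527 (SD, n = 3), wildtype cultures 2116 ± 349 (SD, n = 3), and the log2 fold change was 1.00 (standard error 0.17, edgeR adjusted p = 0.0952). Without wildtype replicate 2 it was 0.91 (adjusted p = 0.0542), and over 14 alternatives it lay between 0.89 and 1.14. Its adjusted p ran from 5.42e-05 (DESeq2) to 0.471 (edgeR without *Nhe6*-knockout replicate 1). No edgeR fit among these put *Dcn* past the threshold.

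*Bgn* encodes biglycan, a close relative of decorin. *Bgn* reached 128929, 124744 and 121065 normalized counts in *Nhe6*-knockout and 113736, 73941 and 115165 in wildtype replicates 1 to 3. The groups did not overlap, but wildtype replicates 1 and 3 came close to the knockout. A log2 fold change of 0.31 (standard error 0.26, edgeR adjusted p = 0.719) resulted, and it was 0.12 (standard error 0.15) without wildtype replicate 2. The summed level of the 13 fibroblast markers overlapped between the genotypes, at 246896 to 281887 normalized counts in *Nhe6*-knockout and 195206 to 339323 in wildtype cultures. Most of that sum was *Col1a2* and *Col3a1*. Of the 13 markers, 3 were higher and 1 lower in *Nhe6*-knockout without overlap, against 10.3% and 9.57% of all genes tested.

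*Aspn* encodes asporin, the class I member with a run of aspartate residues. It had 213, 183 and 1302 normalized counts in *Nhe6*-knockout and 75.3, 4636 and 297 in wildtype replicates 1 to 3. Its highest values came from wildtype replicate 2 and *Nhe6*-knockout replicate 3, and the groups overlapped. The log2 fold change was -1.56 (standard error 1.51, edgeR adjusted p = 0.752) with all libraries and 1.60 (standard error 1.06, adjusted p = 0.466) without wildtype replicate 2.

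Among class II genes, *Lum*, which encodes lumican, had 5148, 4831 and 7560 normalized counts in *Nhe6*-knockout and 2859, 1156 and 5827 in wildtype replicates 1 to 3. Only wildtype replicate 3 reached the knockout range. The log2 fold change was 0.83 (standard error 0.55, edgeR adjusted p = 0.625), and it was 0.42 without wildtype replicate 2 and 1.54 without wildtype replicate 3 (adjusted p = 0.271), when the groups no longer overlapped. *Omd*, which encodes osteomodulin, an acidic protein of mineralized tissue, had 787, 646 and 870.0 normalized counts in *Nhe6*-knockout and 751, 733 and 1518 in wildtype replicates 1 to 3. Wildtype replicate 3 alone stood above the others, and the log2 fold change of -0.38 (standard error 0.32, edgeR adjusted p = 0.704) became 0.043 without it.

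*Fmod*, which encodes the collagen-binding fibromodulin, had 37.2, 58.6 and 199 normalized counts in *Nhe6*-knockout and 149, 1474 and 68.5 in wildtype replicates 1 to 3. *Prelp*, which encodes prolargin, a protein that links the matrix to basement membrane, had 192, 231 and 367 in *Nhe6*-knockout and 280, 11635 and 177 in wildtype replicates 1 to 3. For both genes wildtype replicates 1 and 3 fell inside or beside the knockout range. The log2 fold changes were -2.52 (standard error 1.26, edgeR adjusted p = 0.496) for *Fmod* and -3.93 (standard error 1.64, edgeR adjusted p = 0.421) for *Prelp*. Without wildtype replicate 2 they were -0.15 (standard error 0.75) and 0.20 (standard error 0.35). *Kera*, which encodes keratocan of the cornea, was below the filter, with 17, 4 and 15 reads in *Nhe6*-knockout and 0, 6 and 0 reads in wildtype replicates 1 to 3. A count of 0 allows up to 3 reads, for counting error only, so a difference in *Kera* rests on very few reads. The genotypes overlapped through wildtype replicate 2, and without it each *Nhe6*-knockout culture was above both wildtype cultures (adjusted p = 0.122).

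**Figure D2:**
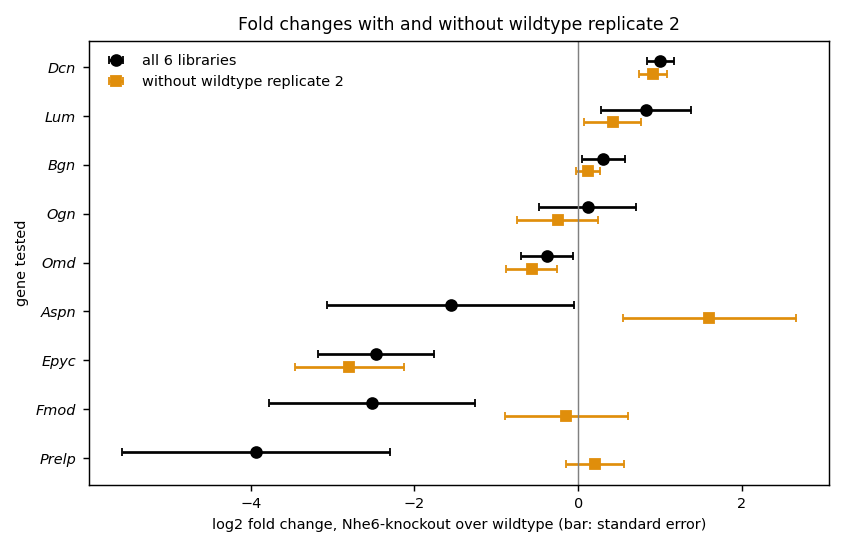
Log2 fold change of the 9 genes tested (*Nhe6*-knockout over wildtype, bars show the standard error) with all 6 libraries (black circles) and without wildtype replicate 2 (orange squares). *Dcn* and *Epyc* kept values near 1.00 and -2.47, while *Prelp* moved from -3.93 to 0.20, *Fmod* from -2.52 to -0.15 and *Aspn* from -1.56 to 1.60.

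*Aspn*, *Fmod* and *Prelp* formed a group of their own in wildtype replicate 2, at 24.9, 13.6 and 51.0 times the mean of wildtype replicates 1 and 3. Of the 9 genes tested, these 3 were more than 2 times above the highest other library in that culture, against 3.53% of all genes tested. Another 4, *Dcn*, *Bgn*, *Lum* and *Ogn*, had their lowest level of all in the same culture, against 26.5% of all genes. *Nhe6*-knockout replicate 3 was the second highest culture for the 3 genes, at 6.56, 4.15 and 1.73 times the mean of knockout replicates 1 and 2. Over the 6 libraries, Pearson's r of log2 counts was 0.94 between *Fmod* and *Prelp*, 0.82 between *Aspn* and *Prelp* and -0.97 between *Bgn* and *Prelp*, which describes values that share wildtype replicate 2 as their extreme point.

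Other genes set that culture apart too. The smooth muscle actin gene *Acta2* had 16275 normalized counts there against 29.3 to 1204 elsewhere, with the second highest value again in *Nhe6*-knockout replicate 3. *Col1a1*, the alpha-1 chain of collagen I, had 27187 against 207 to 1228. The sum of the 11 mural markers was 35283 against 16349 to 24446 in the other libraries, but only *Acta2*, *Tagln* and *Cspg4* were highest there. *Pdgfrb*, *Rgs5*, *Des*, *Abcc9* and *Mcam* were lowest in that culture, with *Pdgfrb* at 7793 against 14685 to 18992 and *Des* at 4.13 against 51.8 to 167. The 8 macrophage markers summed to 61.9 against 465 to 1252, with *Ptprc*, *Adgre1*, *C1qa*, *C1qb* and *Itgam* at 0 reads, and the 15 endothelial markers to 7084 against 11094 to 19691. Most of the latter sum is *Emcn*, at 410 against 9900 to 18393, while *Cdh5*, *Tek*, *Kdr* and *Esam* were at their highest in wildtype replicate 2. The part of these cell types in the levels of *Aspn*, *Fmod* and *Prelp* was not tested.

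**Figure D3:**
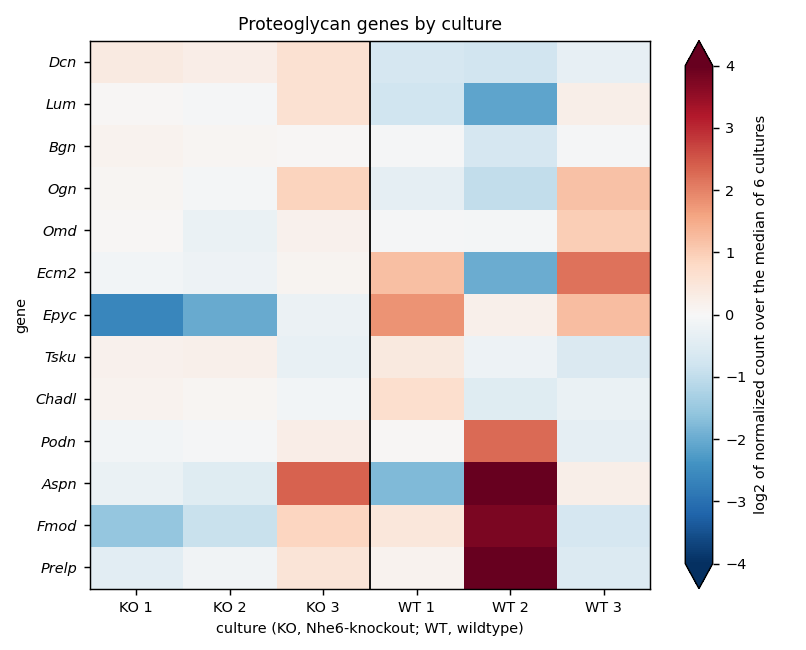
Log2 of the normalized count over the median of the 6 cultures for 9 members and 4 related genes, with cultures in columns and genes in rows (colours end at 4 and -4). Wildtype replicate 2 (WT 2) is high for *Podn*, *Aspn*, *Fmod* and *Prelp* and low for *Lum*, *Ogn* and *Ecm2*, and *Epyc* is lowest in *Nhe6*-knockout replicates 1 and 2.

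Levels of different genes were compared as normalized counts per kilobase of merged exons. *Ogn* and *Bgn* led in both genotypes, at 21619 ± 8200 and 20481 ± 645 (SD, n = 3) in *Nhe6*-knockout and 19968 ± 15794 and 16551 ± 3837 (SD, n = 3) in wildtype cells. Their ranges overlapped each other, and both lay above the 99th percentile of all genes tested, between 99.8% and 99.9%. In *Nhe6*-knockout cells *Lum* (2388 ± 610 per kilobase), *Dcn* (726 ± 90.2) and *Omd* (341 ± 50.4) followed without overlap between neighbours. *Aspn* (240 ± 271), *Epyc* (97.6 ± 86.3), *Prelp* (72.9 ± 25.4) and *Fmod* (29.7 ± 26.6) came next, and each overlapped its neighbour. In wildtype cells the order of means below *Bgn* was *Lum*, *Prelp*, *Aspn*, *Epyc*, *Omd*, *Dcn* and *Fmod*, and no pair of neighbours among these 7 was separate. The places of *Prelp* (77.4, 3219 and 48.8 per kilobase in replicates 1 to 3) and *Aspn* (32.0, 1969 and 126) came from wildtype replicate 2. The wildtype mean of *Epyc*, 542 ± 271 per kilobase (SD, n = 3), was above that of *Dcn*, 362 ± 59.7. Their ranges overlapped, and in wildtype replicate 2 *Epyc* (271) was below *Dcn* (319). In *Nhe6*-knockout cells *Dcn* lay far above *Epyc*.

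The 10 genes together took 0.681%, 0.650% and 0.806% of all gene reads in *Nhe6*-knockout and 0.559%, 0.419% and 0.795% in wildtype replicates 1 to 3, ranges that overlapped. Per kilobase, *Bgn* and *Ogn* made up 90.7% to 92.1% of the summed level in *Nhe6*-knockout cultures. They made up 91.9% and 93.1% in wildtype replicates 1 and 3, but 74.7% in wildtype replicate 2. *Aspn*, *Fmod* and *Prelp* filled the gap, with 20.3% of the sum in wildtype replicate 2 against 0.321% to 1.27% in the other libraries. The share of *Epyc* was 0.0913%, 0.146% and 0.351% in *Nhe6*-knockout and 2.34%, 0.975% and 0.890% in wildtype replicates 1 to 3, with no overlap.

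**Figure D4:**
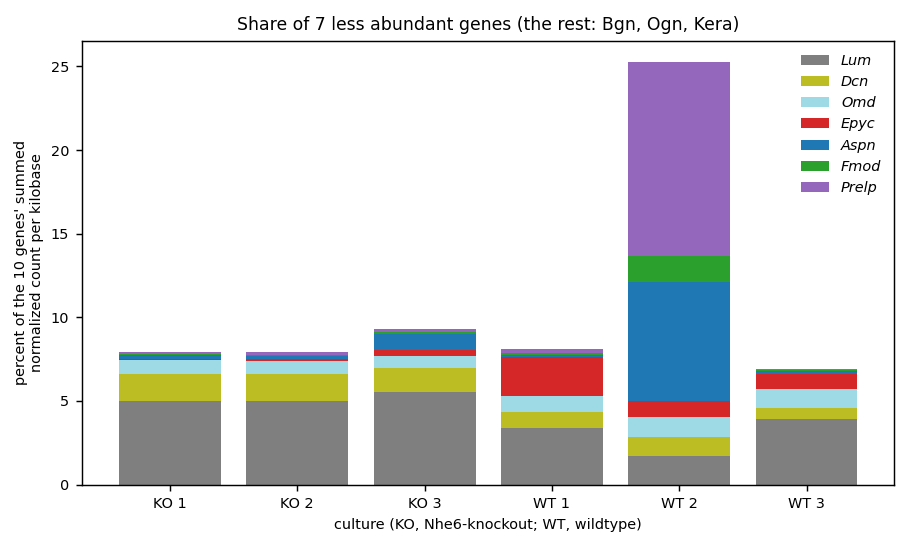
Share, in percent, that 7 less abundant genes took of the summed normalized count per kilobase of the 10 genes in each culture (stacked bars, *Bgn*, *Ogn* and *Kera* make up the rest). The bar of wildtype replicate 2 (WT 2) is filled by *Prelp* and *Aspn*, and *Epyc* takes 0.890% to 2.34% in wildtype against at most 0.351% in *Nhe6*-knockout cultures.

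Within the chromosome 10 cluster the fold changes went in both directions. There *Dcn* and *Lum* had log2 fold changes above 0, at 1.00 and 0.83, and *Epyc*, downstream of both in the same cluster, had -2.47. The ratio of *Epyc* to *Lum* per kilobase was 0.0183, 0.0292 and 0.0637 in *Nhe6*-knockout and 0.696, 0.574 and 0.229 in wildtype replicates 1 to 3, with no overlap. On chromosome 13 the levels of *Omd* and *Ogn* were highest in wildtype replicate 3, whereas *Aspn*, 14.9 kb from *Omd*, was highest in wildtype replicate 2. *Cenpp*, which holds these genes on its other strand and encodes a centromere protein, had 85.0, 76.2 and 68.2 normalized counts in *Nhe6*-knockout and 32.3, 44.4 and 35.3 in wildtype replicates 1 to 3. Its exons overlapped those of *Aspn* by 7 bp and those of *Omd* and *Ogn* by 0 bp.

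**Figure D5:**
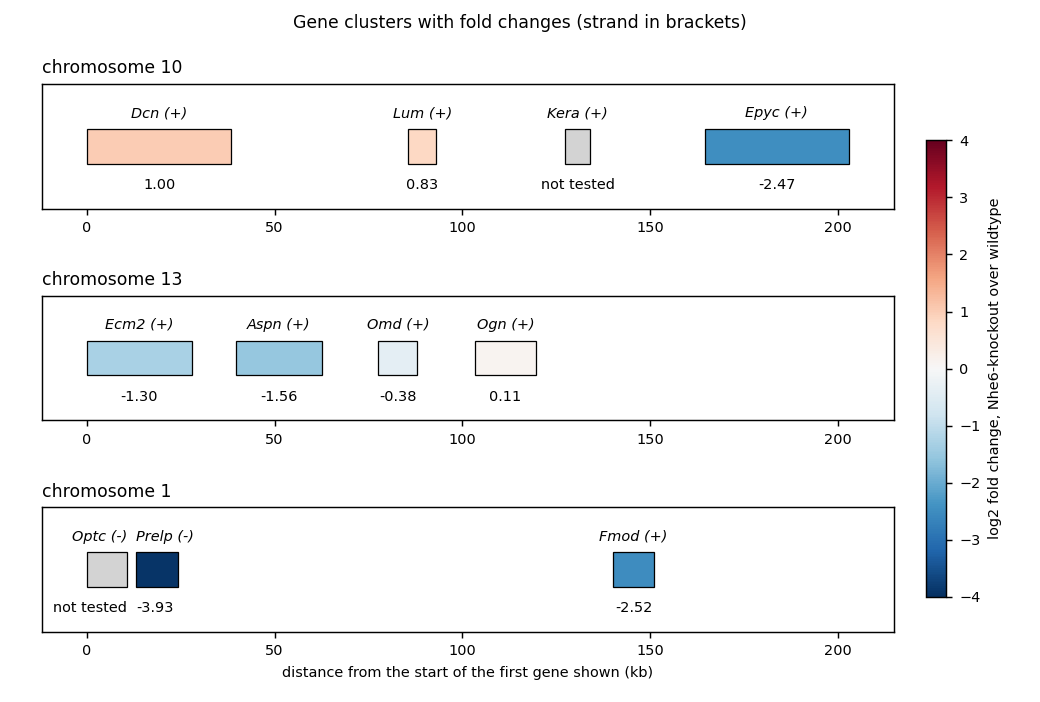
Members and their nearest related genes on chromosomes 10, 13 and 1, drawn to scale as boxes at their distance in kb from the first gene shown, with the strand in brackets. Colour and number give the log2 fold change (*Nhe6*-knockout over wildtype), which is 1.00 for *Dcn* and -2.47 for *Epyc* in the same cluster, and grey genes were not tested.

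Of 8 further small leucine-rich genes outside the 10, 6 passed the filter and 0 had an edgeR adjusted p under 0.05 (0.0668% of all genes tested). There were also 0 at an unadjusted p under 0.05 (11.8% of all genes) and 0 with DESeq2 (4.69% of all genes). *Ecm2*, beside *Aspn*, had 297, 283 and 348 normalized counts in *Nhe6*-knockout and 740, 81.5 and 1461 in wildtype replicates 1 to 3. Its log2 fold change was -1.30 (standard error 0.86, edgeR adjusted p = 0.625). Without wildtype replicate 2, the lowest culture, it was -1.83 (standard error 0.30, edgeR adjusted p = 0.0379), where 2.88% of all genes passed the threshold. *Podn*, which encodes podocan, followed *Prelp* in peaking in wildtype replicate 2, with 2152 normalized counts there against 348 to 534 elsewhere. *Tsku*, which encodes the secreted signalling modulator tsukushi, lay between 1116 and 2162 in all cultures with a log2 fold change of 0.13 (standard error 0.27). *Podnl1*, *Chadl* and *Nyx* had means under 100 normalized counts in both genotypes, and *Optc* and *Chad*, of eye and cartilage, were below the filter.

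Enzymes that build the sugar chains of these proteins were measured as well. For the counts of these and the following lists, the shares over all genes at an unadjusted p under 0.05 were 6.14% higher and 5.71% lower. With DESeq2 they were 2.85% higher and 1.83% lower. Of 21 genes listed for chondroitin and dermatan sulfate chains, 20 were tested and 0 passed the edgeR threshold. At an unadjusted p under 0.05, 2 were lower and 0 higher, and the median log2 fold change was 0.02. The 2 were *Dse*, the epimerase that turns chondroitin into dermatan sulfate (log2 fold change -0.68, standard error 0.17, adjusted p = 0.192), and *Ust*, a uronyl sulfotransferase (-0.42, standard error 0.14, adjusted p = 0.311). *Dse* had 3783, 3456 and 3968 normalized counts in *Nhe6*-knockout and 4875, 5885 and 7178 in wildtype replicates 1 to 3, without overlap, and DESeq2 gave it an adjusted p of 0.0215. Of 8 genes listed for keratan sulfate chains, 6 were tested, 0 passed, and 3 were higher at an unadjusted p under 0.05. The 3 were the sulfotransferase genes *Chst1* (log2 fold change 1.03, standard error 0.41), *Chst7* (0.93, standard error 0.28) and *Chst2* (0.57, standard error 0.16). *Chst7* also acts on chondroitin, so the counts of both lists depend on where it is placed. The median of the 6 tested was 0.49, and DESeq2 gave none an adjusted p under 0.05. *Chst2* was named after its value was seen.

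Among 14 collagen genes whose fibrils these proteins bind, 13 were tested and 0 passed the edgeR threshold. Of the 13 tested, 4 were higher at an unadjusted p under 0.05 (6.14% of all genes) and also with DESeq2 (2.85% of all genes). *Col11a1*, a minor fibrillar chain of cartilage and inner ear, had 15066, 15399 and 11662 normalized counts in *Nhe6*-knockout and 5502, 3710 and 4404 in wildtype replicates 1 to 3, a log2 fold change of 1.63 (standard error 0.21, edgeR adjusted p = 0.0757). *Col2a1*, the main collagen of cartilage, had a log2 fold change of 2.26 (standard error 0.70, edgeR adjusted p = 0.282). *Col5a1* and *Col5a3*, named after their values were seen, had 1.09 (standard error 0.27) and 1.30 (standard error 0.28). Without wildtype replicate 2, *Col11a1*, *Col5a1*, *Col5a2* and *Col5a3* had an edgeR adjusted p between 0.0236 and 0.0325, where 2.88% of all genes passed the threshold. *Col5a2*, also named after its value was seen, then had a log2 fold change of 1.05 (standard error 0.15) against 0.18 with all libraries.

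Of 11 protease genes that process or cleave these proteins, 10 were tested and 0 passed the edgeR threshold. *Adamts4*, an aggrecanase, was the only 1 with an unadjusted p under 0.05, with 661, 730 and 659 normalized counts in *Nhe6*-knockout and 374, 322 and 303 in wildtype replicates 1 to 3 (log2 fold change 1.04, standard error 0.15, adjusted p = 0.0841). DESeq2 gave *Adamts4* an adjusted p of 6.61e-07. Of 18 receptor and ligand genes, 17 were tested and 0 passed, and *Lrp1*, an endocytic receptor of decorin, was the only 1 with an unadjusted p under 0.05 (log2 fold change 0.71, standard error 0.26, adjusted p = 0.363). *Tgfb1*, *Tgfb2* and *Tgfb3* overlapped between the genotypes. Of 18 larger or cell-surface proteoglycan genes, 14 were tested and 0 passed. *Agrn* (log2 fold change 0.90, standard error 0.37) and *Sdc3* (0.51, standard error 0.16) were higher at an unadjusted p under 0.05, and DESeq2 called none. Without wildtype replicate 2, edgeR called *Adamts4* (1.01), *Adamts1* (-0.89), *Cd44* (1.02), *Vcan* (2.42) and *Srgn* (-1.89), with adjusted p between 0.00631 and 0.0443, against 2.88% of all genes. All but *Adamts4* were named after their values were seen. With all libraries *Vcan* was also higher without overlap (1.22, standard error 0.65, edgeR adjusted p = 0.531).

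The pattern of *Epyc* over the 6 libraries was most like that of *Tspyl2*, *Zfp512*, *Uckl1*, *Tomm34* and *Lmod1*, with Pearson's r of log2 counts between 0.988 and 0.996 among 11126 tested genes that averaged 100 normalized counts or more over the 6 libraries. With 6 libraries and so many genes, such values are a description. The likeness is in order more than in size, since *Tspyl2* ran from 2084 to 3154 normalized counts where *Epyc* ran from 98.8 to 2081, and *Lmod1* ran from 87.1 to 316. The members varied within a genotype, with a median ratio of highest to lowest culture of 1.91 in *Nhe6*-knockout and 4.40 in wildtype cells, or 2.02 in wildtype cells without replicate 2. Over all genes tested these medians were 1.22, 1.57 and 1.28.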

How the data were processed

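The authors deposited 1 table of raw counts of reads per gene symbol, without normalization, from poly(A)-enriched stranded libraries read over 75 cycles. The submitters' processing notes name STAR 2.7.7a, HTSeq 0.13.5, DESeq2 1.26.0 and mm10, and the strand setting of the counting and the annotation are not given in the sources used here. The last 5 lines, which hold 22.2% of all reads, count reads that were not assigned to a single gene. They were left out, so only reads assigned to 1 gene were counted. How many of the reads left out lay where genes overlap, as *Epyc* and *Gm10754* do, is not reported here.

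Genes were filtered with filterByExpr (minimum count 10), normalized with TMM and compared in edgeR 4.0.16 (R 4.3.3) by its two-sided quasi-likelihood test, with p-values adjusted by Benjamini-Hochberg across the 13479 genes, a threshold of 0.05 and genotype alone as the term. The standard error is the size of the log2 fold change divided by the square root of F, and errors are SDs over 3 cultures. Alternatives were DESeq2 size factors, upper-quartile factors, a filter of 1 count only, a filter of 10 counts in each library, DESeq2 1.42.0, limma-voom (limma 3.58.1), a replicate block, each library left out in turn, and *Nhe6*-knockout replicates 1 and 2 summed. The fits were tested on simulated data.

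Positions and merged exon lengths came from GENCODE M21 (GRCm38), and 2 of the 186 listed symbols, *Ccn4* and *Cnmd*, were matched by older symbols. The members, gene lists, named genes and tests were chosen with earlier results of these data known. Named genes were the 10 members, the further small leucine-rich genes, cell type markers, and from each other list up to 2 genes per direction with the largest fold change, an unadjusted p under 0.05 and 100 or more normalized counts on average in 1 genotype. The 5 genes with the highest r with *Epyc* were also named. Lists were described by counts and medians, with no set test. The check of the targeted gene is not reported here.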

Additional observations from a re-analysis of the deposited data

How the results depend on the processing

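edgeR called 9 genes at an adjusted p of 0.05, and this number was 21 with a filter of 1 count only, 21 with 10 counts required in each library, 627 with DESeq2 (382 higher and 245 lower), 2 with the replicate block and 1 with *Nhe6*-knockout replicates 1 and 2 summed. With each library left out in turn it ranged from 0 to 395, the highest without wildtype replicate 2, and the 0, without *Nhe6*-knockout replicate 3, stood beside 1371 genes at an unadjusted p under 0.05. The number of the 10 members past the threshold was 0 in edgeR's test and 2 with DESeq2 (*Dcn* and *Epyc*), and it stayed at 0 in the other 13 alternatives, leaving out each library included. The number whose genotypes did not overlap was 3 and ranged from 3 to 5 with each library left out. The 5 were *Dcn*, *Bgn*, *Lum*, *Epyc* and *Ogn*, without wildtype replicate 3. With fewer libraries any gene separates more easily, and the shares over all genes in these settings are not given, so the higher counts are a description only. The log2 fold change of *Aspn* turned to 0.25 with the replicate block and ranged from -3.08 to 1.60 with each library left out, and that of *Prelp* from -4.50 to 0.20, both positive only without wildtype replicate 2. That of *Omd* ranged from -0.57 to 0.043, the positive value without wildtype replicate 3. That of *Ogn* turned to -0.25 without *Nhe6*-knockout replicate 3, to -0.11 without wildtype replicate 1 and to -0.25 without wildtype replicate 2, and ranged from -0.25 to 0.98. The other members kept their direction in each alternative that was run. The cause of these changes was not tested. DESeq2 gave no adjusted p for *Prelp*. Samples that share a replicate number are not known to be paired: their deviations correlated at 0.21, -0.19 and 0.11 for replicates 1, 2 and 3, not every library correlated best with its own number, and the replicate block changed no call of a member. *Kera*, with 0 to 17 reads per library, is the member whose values depth limits most.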

Other observations

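Of 8 markers of mineralized tissue, which small leucine-rich proteoglycans also populate, 6 were tested, with 3 log2 fold changes below 0, 3 above 0 and a median of 0.06. None passed the edgeR threshold, and 2 (*Sp7* and *Alpl*) were higher at an unadjusted p under 0.05, against 6.14% of all genes. DESeq2 called 2, both higher, against 2.85% of all genes. *Sp7*, a transcription factor of bone-forming cells, had 53.1, 62.3 and 80.5 normalized counts in *Nhe6*-knockout and 8.80, 9.29 and 17.1 in wildtype replicates 1 to 3, without overlap (log2 fold change 2.47, standard error 0.42, edgeR adjusted p = 0.0985). *Alpl*, alkaline phosphatase, had a log2 fold change of 3.21 (standard error 0.72, edgeR adjusted p = 0.152), also without overlap. *Ibsp*, bone sialoprotein, had 563 and 881 normalized counts in *Nhe6*-knockout replicates 1 and 2 but 0.947 in replicate 3, and at most 7.49 in wildtype cultures. *Spp1*, osteopontin, lay between 48299 and 179402 and overlapped between the genotypes, as did *Runx2* (log2 fold change -0.06) and *Dmp1* (0.13). *Phex* had -0.998 (standard error 0.79) with overlap and -1.52 without wildtype replicate 2, then lower without overlap (edgeR adjusted p = 0.0674).

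The pigment cell genes *Dct* and *Tyrp1* had 178 and 290.0 normalized counts in wildtype replicate 3 and at most 5.16 in any other library. The sum of the 8 listed melanocyte markers was less uneven, from 288 to 1172, but outside wildtype replicate 3 most of it was *Mitf*, at 254 to 728. *Tyr*, *Mlana*, *Pmel* and *Kit* were also highest in wildtype replicate 3, and *Mitf* and *Sox10* were not. *Omd*, *Ogn* and *Ecm2* also had their highest level in wildtype replicate 3.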
